A study of Homo sapiens with 26 samples.

Results

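The transcriptional coactivators YAP1 and WWTR1 (the gene of TAZ), the 4 TEAD transcription factors TEAD1, TEAD2, TEAD3 and TEAD4, and the target genes CCN1 (also called CYR61), CCN2 (also called CTGF), ANKRD1 and AMOTL2 were followed across 26 mRNA libraries of pancreatic cancer cells. These 10 genes were taken by symbol from a table of 41078 genes, and all 10 were measured. Each library came from 1 single cell-derived cell line (SCDCL), a clone grown from 1 cell of BxPC3 or Panc-1, which are established lines of pancreatic ductal adenocarcinoma. By their labels 12 libraries came from BxPC3 and 14 from Panc-1, with 1 library per clone and no replicate of any clone. Gemcitabine is entered under treatment for all 26 libraries, but the study's methods apply the drug only in viability assays run apart from the RNA, so no library served as an untreated control for another.

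YAP1 and TAZ do not bind DNA by themselves. When the Hippo kinases (STK3 and STK4 with SAV1, then LATS1 and LATS2 with MOB1) are active, YAP1 and TAZ are phosphorylated and held in the cytoplasm, and when the kinases are quiet both enter the nucleus and act through TEAD proteins. Cell density, attachment and tension of the cytoskeleton feed into this switch, and in pancreatic ductal adenocarcinoma YAP1 is known as a driver of growth. The activity of YAP1 and TAZ is largely set at the protein level, which mRNA does not show.

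SMAD4, the common mediator of TGF-beta signaling, is deleted in BxPC3 and intact in Panc-1, and it divided the libraries in a way that the labels did not. It was between 0 and 0.0440 TPM, the unit that scales a library's transcripts to a fixed total after dividing by length, in 12 libraries and between 28.1 and 52.2 TPM in the other 14. The 12 libraries with SMAD4 under 1 TPM, called SMAD4-low below, comprised 7 labelled Panc-1 and 5 labelled BxPC3. The 14 others, called SMAD4-high, comprised 7 of each label. SMAD4 therefore went against the label of 14 libraries, and the labels are used here only as names. The epithelial adhesion gene CDH1 ranged from 90.8 to 197.7 TPM in the SMAD4-low and from 0.338 to 7.74 TPM in the SMAD4-high libraries, and the mesenchymal filament gene VIM ranged from 1.42 to 73.2 and from 3047 to 4526 TPM. The tumor suppressor CDKN2A, deleted in both lines, was at 0 TPM in all 26. Because the 2 states were read from the libraries themselves, differences between them are given as ranges and medians with no test, and every other difference between the lines cannot be told apart from SMAD4.

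TEAD proteins bind the core motif GGAATG, read as CATTCC on the other strand, and the 300-base promoters of the 10 genes were searched for it. A match describes the sequence, and binding was not measured. RefSeq promoter sequences (GRCh38.p14) were matched for 7 of the 10 genes, and CCN1, TEAD1 and TEAD4 had no entry. The motif was found in the entries of 4 genes, YAP1 and the 3 targets below, which are printed because CCN2 and ANKRD1 stood in opposite order between the states. Each sequence starts 250 bases before the transcription start and is written 5′ to 3′ on the strand of the gene, here the minus strand, with the motif in capitals.
CCN2, chr6:131951323-131951622: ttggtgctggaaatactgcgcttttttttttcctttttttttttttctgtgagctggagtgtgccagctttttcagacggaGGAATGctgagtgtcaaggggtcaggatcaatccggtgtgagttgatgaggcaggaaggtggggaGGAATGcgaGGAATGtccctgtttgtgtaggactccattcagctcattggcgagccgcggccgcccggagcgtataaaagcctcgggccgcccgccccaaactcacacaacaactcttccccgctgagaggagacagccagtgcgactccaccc
ANKRD1, chr10:90921038-90921337: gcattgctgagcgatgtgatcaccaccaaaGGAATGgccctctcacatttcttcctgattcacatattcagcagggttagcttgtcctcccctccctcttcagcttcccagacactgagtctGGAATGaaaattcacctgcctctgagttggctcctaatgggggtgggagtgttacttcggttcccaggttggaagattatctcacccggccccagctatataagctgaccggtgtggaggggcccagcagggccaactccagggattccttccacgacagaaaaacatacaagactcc
AMOTL2, chr3:134374398-134374697: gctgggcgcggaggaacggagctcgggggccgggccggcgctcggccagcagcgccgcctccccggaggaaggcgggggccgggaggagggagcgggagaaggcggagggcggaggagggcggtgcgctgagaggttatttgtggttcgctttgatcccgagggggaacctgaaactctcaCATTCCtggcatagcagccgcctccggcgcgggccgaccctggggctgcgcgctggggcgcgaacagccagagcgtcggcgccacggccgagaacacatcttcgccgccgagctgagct
CCN2 held 3 copies, starting 169, 104 and 95 bases upstream of the start, and ANKRD1 held 2, starting 220 and 128 bases upstream. AMOTL2 held 1, 69 bases upstream and on the opposite strand, in 1 of its 2 entries. Of 35116 promoter entries of this length, 14.03% held at least 1 copy on either strand, 1.37% at least 2 and 0.128% at least 3. AP-1 sites were searched with the loose pattern TGANTCA, in which N is any base and which reads the same on both strands. It was found once, in ANKRD1, 195 bases upstream and apart from the TEAD motifs, and in 7.71% of all entries. The ANKRD1 match reads tgattca, and no AP-1 site is read from so loose a pattern. The promoters of WWTR1, TEAD2 and TEAD3 held neither motif in these windows.

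The levels of 4 of the 10 genes did not overlap between the 2 states. WWTR1 and CCN2 were lower in all SMAD4-low libraries than in any SMAD4-high library, and TEAD3 and ANKRD1 were higher. Among all 14763 genes with a mean of at least 1 TPM, 30.3% did not overlap, 14.5% being higher and 15.8% lower in the SMAD4-low libraries, so 4 of 10 was a share near that of all genes. These 4 genes were separated in the same direction on TPM, on CPM (read counts scaled to the library total, here with TMM factors) and on counts divided by size factors. In RNA from whole cultures, fewer cells that express a gene and less of its RNA per cell cannot be told apart.

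**Figure D1:**
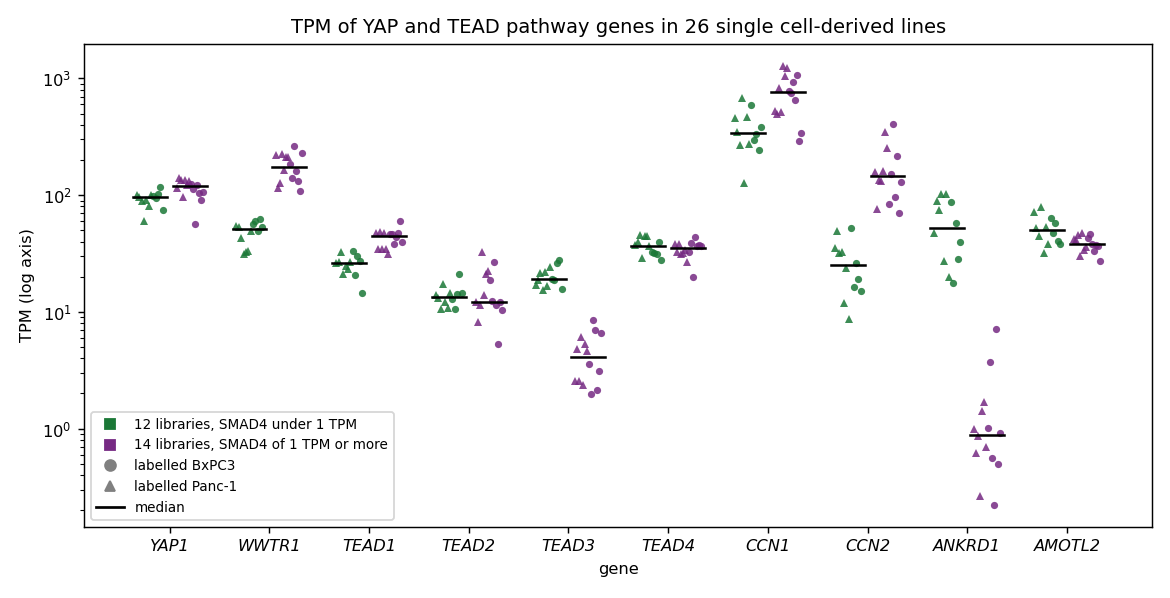
TPM (log axis) of the 10 genes in each of the 26 libraries, with green for the 12 SMAD4-low and purple for the 14 SMAD4-high libraries, circles for the label BxPC3, triangles for Panc-1, and a bar at each median. The green and purple points are apart for WWTR1, TEAD3, CCN2 and ANKRD1 and overlap for the 6 other genes, while circles and triangles mix within each colour.

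Of the coactivators, WWTR1 differed between the states and YAP1 overlapped. WWTR1 (ENSG00000018408, chr3:149517235-149736714) had a lowest, median and highest TPM of 31.4, 51.1 and 62.5 in the 12 SMAD4-low libraries and of 108.6, 175 and 264 in the 14 SMAD4-high libraries, a ratio of medians of 3.43 in favour of the SMAD4-high libraries. YAP1 (ENSG00000137693, chr11:102110447-102233424) had 59.95, 95.9 and 118 TPM in the SMAD4-low and 56.8, 119 and 139.9 TPM in the SMAD4-high libraries. The lowest YAP1 level of each state thus lay close to the other's.

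The balance of the coactivators did not overlap between the states, and neither did their sum. The ratio of WWTR1 to YAP1 on the TPM scale was between 0.357 and 0.724 in the SMAD4-low libraries, with a median of 0.527, so YAP1 mRNA was the more abundant in all 12. In the SMAD4-high libraries it was between 0.821 and 4.65, with a median of 1.404, and WWTR1 was the more abundant in 12 of 14, the exceptions being the libraries numbered 9 and 10. YAP1 and WWTR1 summed to between 91.4 and 181 TPM in the former and to between 199 and 344 TPM in the latter. These ratios and sums were chosen after the values of the single genes had been seen.

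The 4 TEAD genes had overlapping sums with close medians in both states, but the sum was made up differently. Their sum had a median of 97.9 TPM (72.7 to 115) in the SMAD4-low and of 97.8 TPM (80.05 to 113.7) in the SMAD4-high libraries. TEAD3 (ENSG00000007866, chr6:35473597-35497079) had a lowest, median and highest TPM of 15.4, 18.98 and 27.8 in the SMAD4-low libraries and of 1.99, 4.09 and 8.50 in the SMAD4-high libraries, 4.64 times higher by the medians in the SMAD4-low. It made up 17.6% to 25.8% of the summed TEAD TPM in the SMAD4-low and 1.995% to 9.13% in the SMAD4-high libraries.

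TEAD1 went the other way. TEAD1 (ENSG00000187079, chr11:12674421-12944737) had 14.5, 26.4 and 33.0 TPM in the SMAD4-low and 31.5, 45.0 and 60.6 TPM in the SMAD4-high libraries. The ranges met only through the library numbered 14, whose 31.5 TPM was the lowest of its state, and without it they did not overlap. TEAD1 made up 19.9% to 33.9% of the TEAD sum in the SMAD4-low libraries and 32.8% to 53.3% in the SMAD4-high.

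TEAD4 and TEAD2 overlapped throughout. TEAD4 (ENSG00000197905, chr12:2959330-3040676) had 27.9, 36.8 and 45.2 TPM against 19.9, 35.1 and 43.5 TPM in the SMAD4-low and SMAD4-high libraries. TEAD2 (ENSG00000074219, chr19:49340595-49362457) had 10.5, 13.5 and 20.97 against 5.28, 12.3 and 32.7 TPM. By median TPM the order was TEAD4, TEAD1, TEAD3, TEAD2 in the SMAD4-low and TEAD1, TEAD4, TEAD2, TEAD3 in the SMAD4-high libraries. Neighbours in each order had overlapping ranges.

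**Figure D2:**
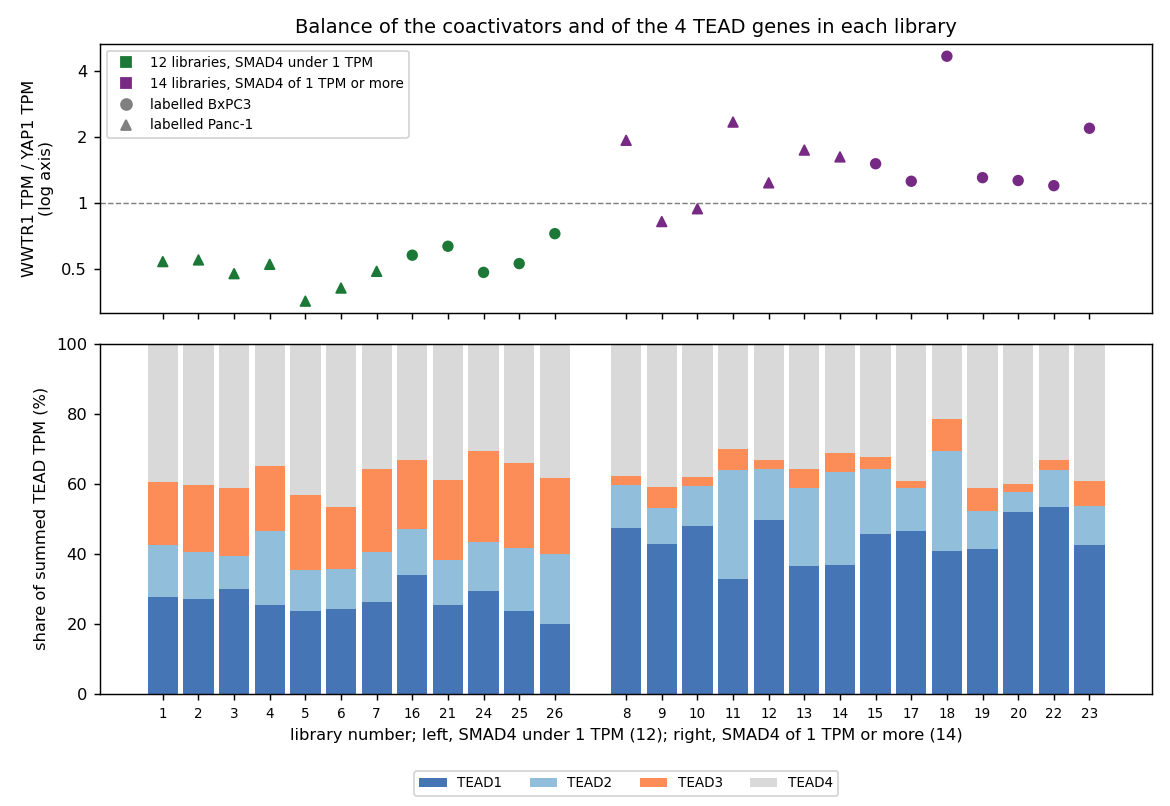
Upper panel, the ratio of WWTR1 to YAP1 TPM (log axis, dashed line at 1) in each library, with green for SMAD4-low and purple for SMAD4-high libraries and the label given by the marker. Lower panel, the share (%) of the summed TEAD TPM that each TEAD gene made up in the same libraries, in which the TEAD3 share is 17.6% to 25.8% on the left and 1.995% to 9.13% on the right.

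The 4 target genes did not move as a group between the states. CCN1 and CCN2 encode secreted matricellular proteins, and both had lower medians in the SMAD4-low libraries. CCN2 (ENSG00000118523, chr6:131948176-131951372) had a lowest, median and highest TPM of 8.70, 25.2 and 52.7 in the SMAD4-low and of 70.2, 144.5 and 404 in the SMAD4-high libraries, a ratio of medians of 5.74. CCN1 (ENSG00000142871, chr1:85580761-85584589) had 127, 339 and 682 TPM in the former and 291, 768 and 1279 TPM in the latter, and its ranges overlapped. CCN1 was the most abundant of the 10 genes by median TPM in both states, and its ratio to CCN2 was 6.94 to 31.3 in the SMAD4-low and 2.32 to 9.31 in the SMAD4-high libraries.

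ANKRD1, which encodes a nuclear ankyrin repeat protein, was the reverse. ANKRD1 (ENSG00000148677, chr10:90912096-90921087) had 17.6, 52.3 and 102 TPM in the SMAD4-low and 0.222, 0.887 and 7.15 TPM in the SMAD4-high libraries, so the median was 59.0 times higher in the SMAD4-low. The SMAD4-high median was under the limit of 1 TPM, so this ratio rests on a value near the floor. The difference is partly bound to that limit. On log2(median + 1) of the TPM the difference was 4.82, a scale that understates the change of a gene this low, and it was 5.88 on size-factor counts. ANKRD1 exceeded CCN2 in all 12 SMAD4-low libraries, by 1.08 to 4.27 times in TPM, and stood at 0.00140 to 0.0332 times CCN2 in the SMAD4-high. AMOTL2 (ENSG00000114019, chr3:134355347-134375479), an angiomotin-family scaffold that binds YAP1 and holds it back, had 31.8, 50.3 and 78.9 TPM against 27.1, 38.0 and 47.6 TPM, with overlapping ranges.

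The mean transcript length that kallisto assigned to a gene shifts when the mixture of its isoforms shifts. None of the 10 genes had lengths that did not overlap between the states, beside 3.74% of all genes, so nothing particular to the 10 is read from it. Median lengths in SMAD4-low and SMAD4-high libraries were 2961 and 2882 bases for WWTR1 and 3298 and 3413 for TEAD3. They were 2050 and 2051 bases for CCN2 and 1491 and 1496 for ANKRD1. The members lie in 7 different chromosomes, with YAP1 and TEAD1 on 11, TEAD3 and CCN2 on 6, and WWTR1 and AMOTL2 on 3.

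Within each state the clones differed by far more than the error of a single library. That error was taken from the 30 inferential replicates that kallisto made for each library by quantifying redrawn sets of its reads. The SD of log2(TPM + 1) among clones was 5.24 to 72.6 times the SD of the inferential replicates for all 10 genes in both states. As there is 1 library per clone, differences between clones cannot be told apart from differences between the cultures or preparations. The SD of CCN1 was 0.65 among SMAD4-low and 0.66 among SMAD4-high clones, that of CCN2 0.77 and 0.76, and that of ANKRD1 0.90 and 0.74. The median SD of all genes was 0.30 and 0.29, and these 3 targets varied more than 91.4% to 96.6% of genes. TEAD2 and TEAD3 were variable in the SMAD4-high libraries, with SDs of 0.65 and 0.56 that exceeded those of 90.9% and 86.8% of genes, while YAP1 and TEAD4 in the SMAD4-low libraries had SDs of 0.25 and 0.24, below those of most genes.

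The library numbered 18, labelled BxPC3 and SMAD4-high, had the most divergent coactivators. Its YAP1 level of 56.8 TPM was the lowest of its state, where the 13 others ranged from 90.8 to 139.9 TPM. It also had the highest WWTR1 (264 TPM), TEAD3 (8.50 TPM) and CCN2 (404 TPM) and the lowest TEAD4 (19.9 TPM) of the 14. Relations of YAP1 and TEAD4 in the SMAD4-high libraries rested on it, since r between these genes was 0.556 with it and -0.262 without it.

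Next, the 10 genes were correlated with each other within each state, on log2(TPM + 1), to ask whether coactivators, TEAD genes and targets varied together among clones. There were 45 pairs in the 12 SMAD4-low libraries and 36 in the 14 SMAD4-high libraries, where ANKRD1 was left out because its median was under 1 TPM. All p-values are two-sided, from permutation tests with 100000 permutations, and were adjusted by Benjamini-Hochberg over the 81 pairs. Of these, 1 pair passed an adjusted p under 0.05. On log2(CPM + 1) with TMM factors 4 pairs passed, all in the SMAD4-low libraries.

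That pair was CCN1 with AMOTL2 in the SMAD4-low libraries. Pearson's r was 0.844 (permutation p = 0.00044, adjusted p = 0.0356) and Spearman's rho was 0.804 (permutation p = 0.00246, adjusted p = 0.0664), so it missed the threshold on ranks. Without the 2 libraries whose CCN1 was farthest from the median, 4 and 5, r was 0.696 and the adjusted permutation p was 0.154, so the call was lost. Left out one at a time, r stayed between 0.793 and 0.919, and the call was also lost without any 1 of 8 libraries (2, 3, 4, 5, 7, 16, 21 and 25). Within the 7 libraries labelled Panc-1 r was 0.928 and within the 5 labelled BxPC3 it was 0.597, both given with no test. Of 14374 other genes measured in the state, 0.202% had an r with CCN1, and 0.111% with AMOTL2, of at least 0.844 in size.

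The 6 pairs among the 4 targets were all positive in the SMAD4-low libraries, with r from 0.619 to 0.844. CCN2 with ANKRD1 gave an r of 0.811 and an adjusted permutation p of 0.0718, and it passed without library 6, with an r of 0.8695 and an adjusted permutation p of 0.0401, and on CPM, with 0.816 and 0.0292. CCN2 with AMOTL2 gave 0.755 and 0.0844. On TPM over all 12 libraries these and the remaining 3 pairs did not pass the adjusted threshold. CCN1 and CCN2 gave 0.619 (adjusted permutation p = 0.152). The genes share the libraries and the scaling of TPM, and the 6 pairs are built from 4 genes and are not independent of each other.

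Among the coactivators and TEAD genes of the SMAD4-low libraries, YAP1 gave its highest r with TEAD3, at 0.755 (adjusted permutation p = 0.0718), followed by WWTR1 at 0.653 (adjusted permutation p = 0.149). Neither passed. Without library 1 YAP1 and TEAD3 passed, with an r of 0.843 and an adjusted permutation p of 0.0405, and without library 26 YAP1 and WWTR1 passed, with an r of 0.781 and 0.0162. YAP1 mRNA had an r of -0.463 with CCN1 and -0.0687 with CCN2, and WWTR1 had 0.0136 and 0.0857, so the level of neither coactivator followed that of these targets detectably over 12 libraries. TEAD3 had negative r with the targets CCN1, at -0.618 (adjusted permutation p = 0.152), and AMOTL2, at -0.444 (adjusted permutation p = 0.341). Both pairs passed on CPM, with r of -0.859 and -0.857 and an adjusted permutation p of 0.01485 each.

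In the SMAD4-high libraries 0 of 36 pairs passed. At an unadjusted permutation p under 0.05 there were 10 of 36, and 10 of 45 in the SMAD4-low libraries. The share among pairs of all genes was not counted and the pairs share genes, so no excess is read from these counts. In the SMAD4-high libraries the share of 13825 genes with an r as large in size was 1.01% for AMOTL2 with TEAD3. It was 12.7% for WWTR1 with TEAD4. The lowest adjusted permutation p was that of TEAD3 with AMOTL2, an r of -0.709 with 0.0844, which became -0.814 with 0.0385 without library 18. WWTR1 with TEAD2 gave an r of 0.675 (adjusted permutation p = 0.110), which passed without library 23, at 0.774 with 0.0483.

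The target pair CCN1 and CCN2 had an r of 0.655 (adjusted permutation p = 0.1302) and a rho of 0.776 (adjusted permutation p = 0.0664) in the SMAD4-high libraries. WWTR1 with CCN2 had an r of 0.594 (adjusted permutation p = 0.152), which was 0.366 without the 2 libraries farthest in WWTR1. YAP1 gave an r of -0.373 with WWTR1 and -0.412 with TEAD3, of opposite sign to the SMAD4-low libraries, but without library 18 these were -0.0391 and -0.0315. Whether a correlation differed between the states was not tested.

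**Figure D3:**
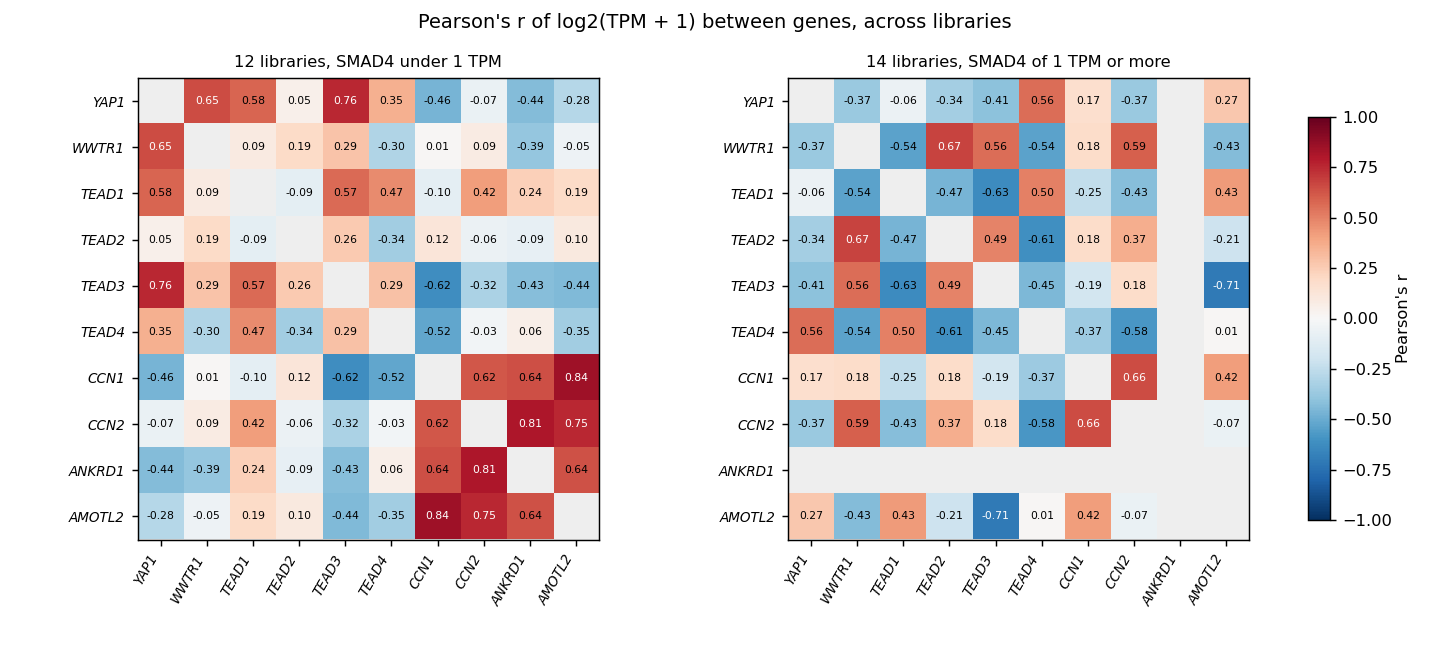
Pearson's r of log2(TPM + 1) between pairs of the 10 genes across the 12 SMAD4-low (left) and the 14 SMAD4-high libraries (right), from blue (-1) to red (1), with ANKRD1 left blank on the right. The lower right corner of the left panel holds the 6 positive pairs among the targets, of which CCN1 with AMOTL2 passed the adjusted threshold.

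**Figure D4:**
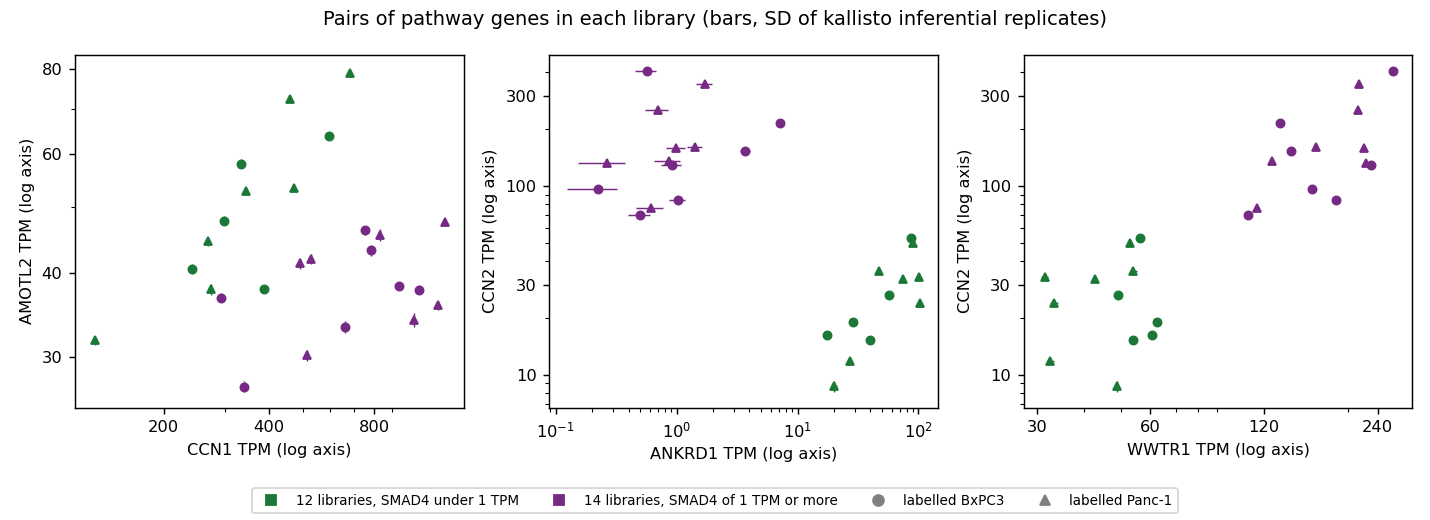
TPM of 3 pairs of genes in each library (both axes log), with green for SMAD4-low, purple for SMAD4-high, circles for the label BxPC3, triangles for Panc-1 and bars for the SD of the inferential replicates, which is smaller than most symbols. CCN1 and AMOTL2 rise together among green points (r = 0.844), ANKRD1 and CCN2 occupy opposite corners in the 2 states, and WWTR1 and CCN2 are both higher in all purple points.

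The genes whose pattern was most like that of CCN1 in the SMAD4-low libraries, among 8885 with a mean of at least 10 TPM in that state, were EDN1 (endothelin), with an r of 0.934 over 12 libraries, COL8A1 (a collagen), with 0.923, and CRIM1, a known YAP1 target, with 0.918. For CCN2 they were PDGFB (a growth factor) with 0.884 and CLDN1 (a tight junction gene) with 0.844, the third not being reported here. In the SMAD4-high libraries, among 8734 genes, they were SLC35B4, SSR4 and SLC26A2 for CCN1, with r of 0.860, 0.831 and 0.830 over 14 libraries, and ZNF449, GUSB and SLC31A1 for CCN2, with 0.903, 0.903 and 0.881. These r were picked as the highest of all genes screened and carry no p. Whether the genes most like CCN1 and CCN2 differed between the states was not tested.

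Sequencing depth and proliferation did not track the targets detectably. Over 14 relations of CCN1, CCN2, ANKRD1 and AMOTL2 with the library total or with the proliferation marker MKI67 within a state, the adjusted permutation p was at least 0.8785, with r from -0.434 to 0.214.

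Upstream, 18 of 20 Hippo kinases, scaffolds and regulators passed a mean of 1 TPM. Of these, 2 were higher in all SMAD4-low libraries, 5 were lower, and 11 overlapped, so 38.9% did not overlap beside 30.3% of all genes. The median difference of the list on log2(median TPM + 1), SMAD4-low minus SMAD4-high, was 0.08. The same median was -0.12 over the 10 genes and -0.02 over all genes. The core kinases and their partners STK3, STK4, SAV1, MOB1A, MOB1B, LATS1 and LATS2 all overlapped on TPM, although STK3 was lower in the SMAD4-low libraries with no overlap on CPM and on size-factor counts. LATS1 had medians of 21.5 and 19.3 TPM and LATS2 of 12.1 and 8.98 TPM in the SMAD4-low and SMAD4-high libraries.

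Of the 7 genes without overlap on TPM, NF2, which recruits LATS kinases to the membrane, ranged from 12.4 to 22.3 TPM in the SMAD4-low and from 37.5 to 85.3 TPM in the SMAD4-high libraries. WWC2, a WW-domain scaffold upstream of the LATS kinases, had 8.60 to 26.2 against 29.6 to 70.8 TPM, an order without overlap on TPM and CPM but not on size-factor counts. The atypical cadherin FAT4 had 0.277 to 1.54 against 1.89 to 6.33 TPM. Its SMAD4-low median of 0.656 TPM was under the limit of 1 TPM, so its difference is partly bound to that limit. TAOK1 and TAOK2, kinases that activate STK3 and STK4, made up the 5 and are named after their values were seen. In the other direction, the kinase MAP4K4 had 54.1 to 106 against 24.7 to 49.6 TPM, and the scaffold FRMD6 had 52.9 to 78.6 against 17.6 to 47.7 TPM.

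Of the TEAD cofactors of the vestigial-like family, which compete with YAP1 for TEAD proteins or act beside it, 3 of 4 were measured above the limit. VGLL1 had a median of 2.39 TPM, from 0.129 to 10.6, in the SMAD4-low libraries and was listed at 0 in all 14 SMAD4-high libraries. VGLL3 had 1.00 to 2.96 against 0.0819 to 0.770 TPM, and VGLL4 overlapped. VGLL1 and VGLL3 were under 1 TPM in all SMAD4-high libraries and reached the limit through the SMAD4-low libraries, so no direction is read from the list.

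Among 18 other genes known as YAP1 and TEAD targets, 17 passed the limit, of which 3 were higher in all SMAD4-low libraries, 3 were lower and 11 overlapped, so 35.3% did not overlap beside 30.3% of all genes. RBMS3, CCDC80 and FOXF2, 3 of these 6, were under 1 TPM in every library of one state and reached the limit through the other, so their difference was bound to the limit. F3 had the largest difference of the list, 6.79 on log2(median TPM + 1). F3, the gene of tissue factor, had 956 to 2084 TPM in the SMAD4-low and 0.237 to 33.7 TPM in the SMAD4-high libraries. RBMS3 had 1.93 to 4.33 against 0.0168 to 0.839 TPM and CCDC80 had 1.16 to 4.42 against 0.307 to 0.714 TPM. FOXF2, a forkhead factor, had at most 0.217 against 9.03 to 21.3 TPM. CRIM1 had 43.2 to 104 against 163.5 to 349.7 TPM and ASAP1 had 22.9 to 37.8 against 63.3 to 111 TPM. The median log2 difference of the list was -0.28. MYOF and AXL, with medians of 165 and 199 TPM in the SMAD4-low and of 205 and 148 TPM in the SMAD4-high libraries, overlapped. DOCK5, named after its values were seen, overlapped on TPM but was higher in all SMAD4-low libraries on CPM and on size-factor counts.

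Of 4 relatives of CCN1 and CCN2, 2 passed the limit, CCN3 and CCN5. CCN3 had 3.20 to 42.9 TPM in the SMAD4-low and 0 to 0.597 TPM in the SMAD4-high libraries, whereas CCN5 had 0.0178 to 0.204 against 21.5 to 145.6 TPM. Each was under 1 TPM in every library of the state where it was low and reached the limit through the other. Their difference was thus bound to the limit, and no result is read from it. CCN4 and CCN6 were under a mean of 1 TPM.

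Of pathways that share targets with YAP1, AP-1 had 1 of 8 subunits (12.5%) without overlap, beside 30.3% of all genes. That subunit was JUNB, with 132.8 to 233 TPM in the SMAD4-low and 23.6 to 60.2 TPM in the SMAD4-high libraries. Of 11 genes of SRF and its cofactors, 10 passed, of which 7 overlapped and 3 (30%) did not. ACTA2 was higher (2.41 to 7.61 against 0.375 to 1.51 TPM). FHL2 (36.2 to 66.0 against 246.5 to 519.95 TPM) and TPM1 (26.5 to 118 against 166.7 to 451 TPM) were lower. The SMAD4-high median of ACTA2, 0.545 TPM, was under the limit, so its difference is partly bound to the limit. Of 5 TGF-beta targets, 2 (40%) were lower in all SMAD4-low libraries, as was CCN2, and 3 overlapped. The 2 were SMAD7 (1.90 to 4.88 against 12.3 to 28.7 TPM) and LTBP2 (7.76 to 25.3 against 34.9 to 157 TPM). MRTFB, named after its values were seen, overlapped on TPM but was lower in all SMAD4-low libraries on CPM and on size-factor counts. On TPM the SRF and TGF-beta shares lay near the 30.3% of all genes. The median log2 difference was 0.34 for the AP-1 list, -1.01 for the SRF list and -0.78 for the TGF-beta list, which is given without 1 of its genes.

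**Figure D5:**
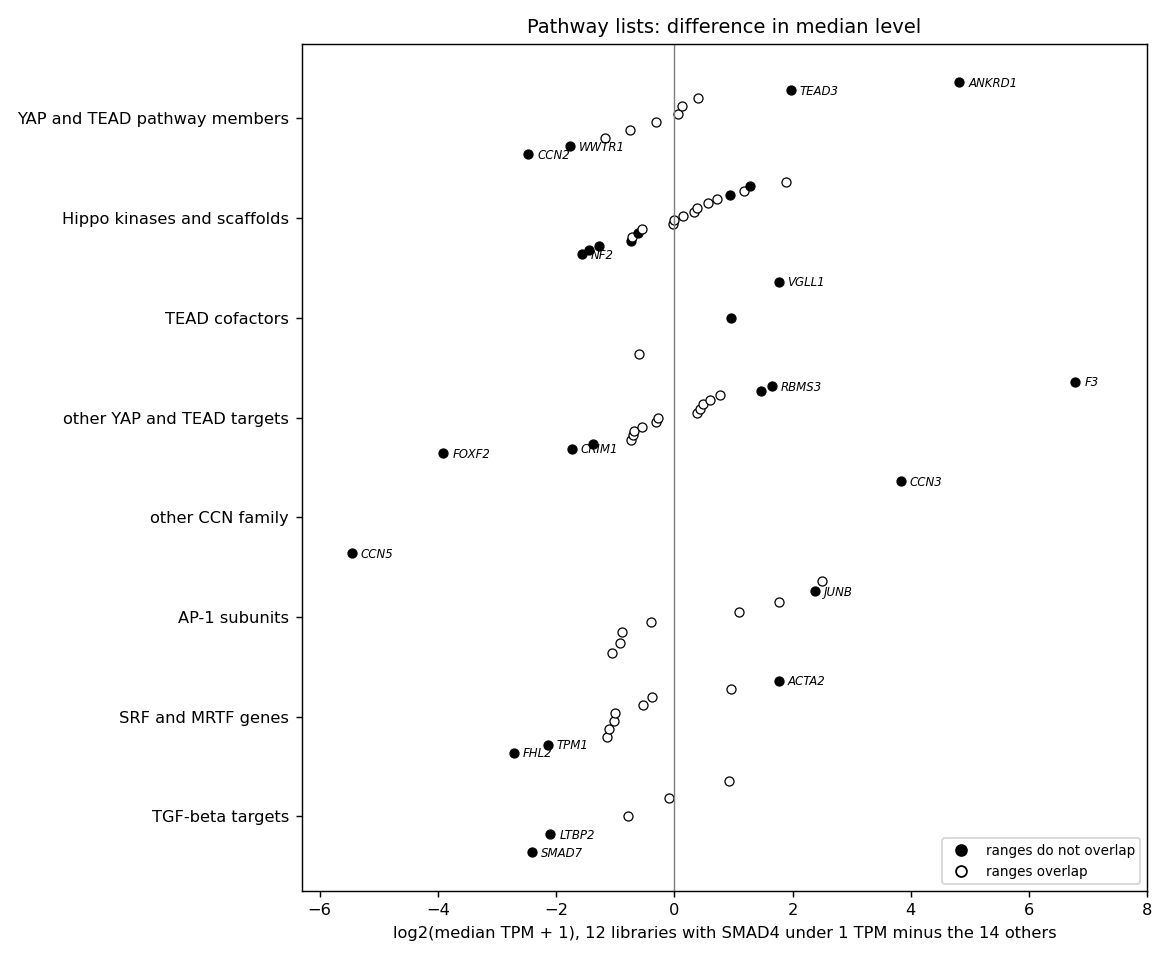
Difference of log2(median TPM + 1), SMAD4-low minus SMAD4-high libraries, for each gene of the 10 and of 7 related lists that passed a mean of 1 TPM, with filled points for genes whose ranges do not overlap and open points for those that do. Filled points beyond a difference of 1.5 are named. They stand on both sides of 0 among the 10 genes, the Hippo regulators and the other targets, while those of the TGF-beta list stand to the left.

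Markers of other cell types were low, with exceptions. The leukocyte genes PTPRC and CD3E reached at most 0.535 and 0.393 TPM in any library, while CD68, which other cells also express, had 5.27 to 26.9 TPM in the SMAD4-low and 42.5 to 141 TPM in the SMAD4-high libraries and made up nearly all of a leukocyte sum of 5.37 to 27.4 against 42.5 to 141 TPM. The 3 endothelial genes summed to 3.16 to 16.97 and 0.321 to 5.39 TPM, and the 4 fibroblast genes to 9.72 to 28.5 and 2.68 to 39.4 TPM. The 5 epithelial genes summed to 2255 to 4960 and 2026 to 8412 TPM, with CDH1 and EPCAM without overlap (EPCAM, 239 to 424 against 7.49 to 25.5 TPM). The keratin genes KRT8 and KRT18 had lower medians in the SMAD4-low libraries, 461 against 2053 and 521 against 1598 TPM, and KRT19 a higher one, 1966 against 1220.3 TPM, all 3 with overlap. The mesenchymal genes VIM and ZEB1 summed to 2.05 to 75.6 and 3066 to 4550 TPM. The part of these differences in those of WWTR1, TEAD3, CCN2 and ANKRD1 was not tested.

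Between the labels, none of the 10 genes was called. With edgeR's quasi-likelihood test 0 of 16008 genes passed an adjusted p under 0.05, and 367 genes (2.29%) had an unadjusted p under 0.05, none of them among the 10. The largest fitted log2 fold change of the 10, Panc-1 label minus BxPC3 label, was 0.80 for ANKRD1 (edgeR, adjusted p = 0.99998), which had 0.265 to 102 TPM under the label Panc-1 and 0.222 to 86.7 TPM under BxPC3. With the SMAD4 state as a covariate it was -0.23 (edgeR, adjusted p = 0.940), and within the SMAD4-low and SMAD4-high libraries 0.61 (edgeR, adjusted p = 0.612) and -1.10 (edgeR, adjusted p = 0.982), so its sign differed between these fits. DESeq2 called 2 genes (0.00689%), MYH16 and ATP10B, named after their values were seen and neither of them among the 10. Both labels hold both SMAD4 states, so in the fits without the state the spread within a label includes the difference between the states. For ANKRD1 this made the range within each label nearly as wide as that over all libraries.

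The labels were also compared within each state, a comparison added after the states had been seen. Among the SMAD4-low libraries 0 of 16124 genes passed in edgeR, while 11.4% of them lay below an unadjusted p of 0.05. WWTR1 had a log2 fold change of -0.38 (edgeR, adjusted p = 0.416) and TEAD4 of 0.34 (edgeR, adjusted p = 0.409), the 2 of the 10 with an unadjusted p under 0.05. Within the SMAD4-high libraries 0 of 15161 genes were called and 4.62% had an unadjusted p under 0.05, none of them among the 10. The difference between the states in the effect of the label had an unadjusted p of at least 0.054 in edgeR for each of the 10.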

How the data were processed

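Messenger RNA from 26 SCDCLs was sequenced once each. The authors quantified the reads with kallisto 0.46.1 (version per the submitters' processing notes) against Ensembl release 103 of GRCh38 and deposited, per gene and library, TPM, estimated counts made from TPM and mean transcript length, that length in bases, and estimated counts of 30 inferential replicates from redrawn reads. The estimated counts are scaled to the library total, 27035724 to 34945608 per library (median 29623513), and are not normalized between libraries. The depth limits genes of few counts, such as ANKRD1 in the SMAD4-high libraries. Of 41078 genes, 36315 were matched by identifier to GENCODE 44, which has the build of the files.

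The states were set by SMAD4 at 1 TPM. The lists, the 10 genes and the tests were chosen with earlier results of these data known. Levels were compared as TPM, keeping genes that averaged 1 TPM or more. Labels were tested on rounded estimated counts with edgeR 4.0.16 (TMM, filterByExpr), with DESeq2 1.42.0 and limma 3.58.1 as alternatives, in R 4.3.3, and correlations used scipy 1.17.1, numpy 2.4.6 and pandas 2.3.3 in Python 3.11.15 with a pseudocount of 1. P-values set an effect against the spread between clones, each grown and sequenced once. In the label fits without the SMAD4 state, that spread includes the difference between the states. Scripts were tested on simulated data. The named genes were the 10, SMAD4, the markers, up to 3 genes per list and direction with the largest difference, and the 3 most like CCN1 and CCN2. The response of clones to gemcitabine is not in the labels and the study's sleuth tests were not repeated. One gene of the list of TGF-beta targets, left out of its counts and median, and 1 of the genes most like CCN2 are not reported here.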

Additional observations from a re-analysis of the deposited data

How the results depend on the processing

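The number of the 10 genes without overlap between the states was 4 on each of the other 2 scales. It was also 4 under the other 2 filters, but all 10 genes averaged over 10 TPM, so neither filter could change it. It was 5 with 1 library allowed on the other side, and 4 to 5 when each library was left out, TEAD1 being added without library 14. Neither of these 2 changes can undo a call, so the count could only stay or rise. Over all genes the count was 4479 of 14763 (30.3%), and 4483 to 4671 with each library left out. Among genes with a mean of at least 10 TPM it was 2915 of 9556 (30.5%), a like share of a smaller set. With no filter on low values it was 5095 of 29524 (17.26%). The number of pairs called in the SMAD4-low libraries, 1 as reported, was 4 on TMM-normalised CPM (TEAD3 with CCN1 and with AMOTL2, both negative, CCN2 with ANKRD1, and CCN1 with AMOTL2), 0 by Spearman's rho, 0 without the 2 farthest libraries, and 0 to 2 with each library left out. In the SMAD4-high libraries it was 0, and 0 to 1 with each library left out. The cause of these moves in the number of pairs was not tested. DESeq2 called 2 genes between the labels, neither of them among the 10, and edgeR under every other setting and limma called 0. The difference of ANKRD1 on log2(median + 1) of 4.82 was 5.73 with a pseudocount of 0.1 and 5.88 on size-factor counts. Between the states, the difference of medians of TEAD4, 0.067 on TPM, was -0.017 on CPM, and those of the other members kept their sign on each scale. Between the labels, the uncalled fold change of ANKRD1 of 0.80 was -0.23 with the SMAD4 state as a covariate, where TEAD3 and CCN2 also changed sign. In correlations, r of YAP1 with TEAD4 in the SMAD4-high libraries changed sign without library 18. Depth limits ANKRD1 in the SMAD4-high libraries, where it had 6.75 to 215 estimated counts per library. No paired analysis was possible, as there is 1 library per clone and nothing links a clone of one label to a clone of the other.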
